A study of Homo sapiens with 4 samples.

Results

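The contractile genes described here were 10 genes of the actomyosin apparatus, ACTA2, TAGLN, MYL9, CNN1, CNN2, TPM1, TPM2, CALD1, MYH9 and ACTN1. They were taken by gene symbol from a table of 58365 genes, and each symbol had 1 row. The table came from H1 cells, an established human embryonic stem cell line, collected at day 2 of hematopoietic differentiation. All cultures received activin A and BMP4, the growth factors used here to start mesoderm commitment, at 40 and 50 ng/ml in the sample labels, while the study's methods give these doses the other way round. A pair of libraries came from cells given the vehicle DMSO and another pair from cells given IWP2, a small molecule that blocks the Porcupine enzyme and thereby the secretion of Wnt ligands. The dose of IWP2 is not given in the sources used here. Nothing in the labels says that the 2 libraries of a group came from separate cultures, so the p-values measure only the spread between these libraries, which may be technical.

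Actomyosin is the cell's contractile machinery. Filaments of actin are pulled by bipolar filaments of myosin II, whose activity is switched on when its regulatory light chain is phosphorylated. Tropomyosin lies along the actin filament and controls access of myosin, calponin, caldesmon and transgelin bind and stabilise the filament, and alpha-actinin crosslinks filaments and ties them to adhesions. Smooth muscle cells express high levels of ACTA2, TAGLN, CNN1, CALD1, TPM2 and MYL9, and many other cells switch on a part of this set when they build stress fibres, often through serum response factor (SRF) and its actin-sensing cofactors of the MRTF family. In the embryo, cells that leave the epithelium during mesoderm formation remodel this machinery.

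All 10 genes were measured in all 4 libraries, and 6 of them, CALD1, TPM1, TAGLN, CNN1, ACTN1 and CNN2, rose with IWP2 (limma on log2(FPKM + 1), adjusted p under 0.05 over all genes tested). FPKM is the number of sequenced fragments per kilobase of transcript, scaled to the fragments mapped in the library. The other 4 genes, ACTA2, MYL9, MYH9 and TPM2, did not pass the test. No contractile gene fell. Of the 14022 genes tested, 6.75% rose and 8.44% fell, against 6 and 0 of the 10 contractile genes. The median difference of the 10 genes was 0.63 on the log2 scale, beside -0.02 over all genes tested. In each of the 10 genes both IWP2 libraries lay above both DMSO libraries, a pattern that 27.9% of all genes tested showed, while 31.9% showed the opposite order. The calls depended on the libraries: fewer were made, among these genes and over all genes tested, when any 1 library was left out. Such a fit leaves 1 library in a group. All 10 differences stayed positive whichever library was left out, from 0.96 to 1.07 in TPM1 and from 0.02 to 0.12 in TPM2. With no filter on low values, 28917 genes entered the test and 381 of them were called, with TPM1 alone among the contractile genes. These were bulk samples, so a larger share of cells with a transcript cannot be told apart from more transcript in each cell.

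**Figure D1:**
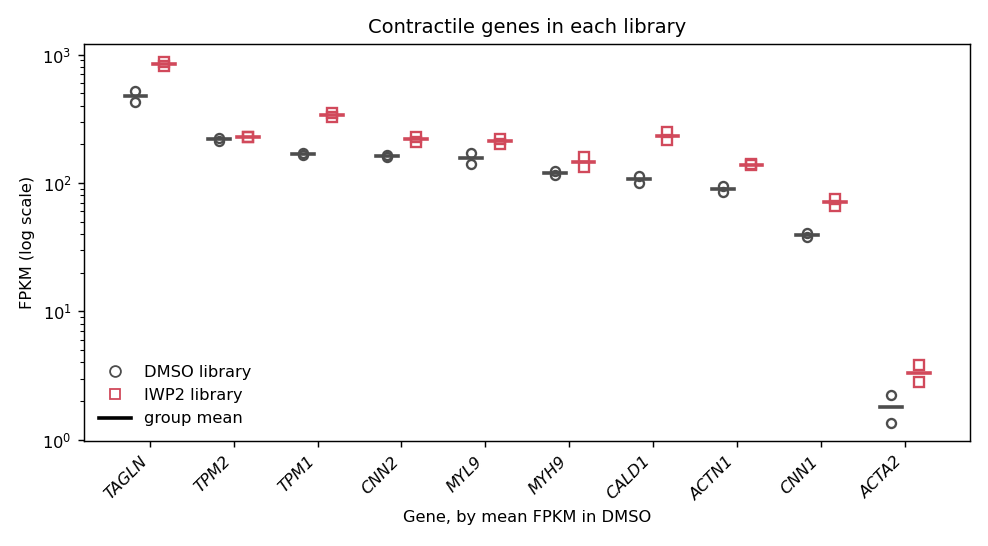
Each point is the FPKM (log axis) of 1 contractile gene in 1 library, with circles for the 2 DMSO libraries, squares for the 2 IWP2 libraries and short bars for the group means. TAGLN had the highest and ACTA2 the lowest level, and in every gene both squares lie above both circles, narrowly so in TPM2.

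The regulation of this gene group is often traced to the CArG box, the SRF site made of 2 C, 6 A or T and 2 G, so the stretches before the annotated starts were read for it. RefSeq (GRCh38.p14) gave 16 starts for 8 of the 10 genes, and the 250 bases before each start were searched on both strands. MYL9 and TAGLN had no entry. An exact CArG box lay before 1 start each of CNN2 and ACTN1, and in 1.16% of 35116 promoters of the same length. No exact box lay before the searched starts of CALD1, TPM1 and CNN1, which rose, or of ACTA2, TPM2 and MYH9, which did not pass the test. Stretches that depart from the pattern by 1 letter were not counted. Among those are ccctatatgg and ccttgtttgg before the inner start of ACTA2, so the absence of an exact box is not the absence of an SRF site. The MCAT motif, CATTCC or its reverse complement GGAATG, the core of sites bound by TEAD factors, lay before 5 starts of 4 genes, ACTA2, CALD1, MYH9 and ACTN1, and in 11.9% of all promoters. Of the 96 bases around the motif, 81 in MYH9 and 71 before the first listed CALD1 start lay in annotated exons. None did around the motif of ACTA2, of ACTN1 or of the fourth listed CALD1 start. The stretches around the boxes of CNN2 and ACTN1 are shown with the CArG box in capitals. Beside them is the stretch before the inner start of ACTA2, with its MCAT motif in capitals. The CNN2 stretch lay on the plus strand at chr19:1026474-1026573, outside the annotated gene body, with the box beginning 89 bases before the start. The ACTN1 stretch lay on the minus strand at chr14:68977683-68977782, in an intron, with the box beginning 171 bases before the third listed start. The ACTA2 stretch lay on the minus strand at chr10:88952906-88953001, also in an intron, with the motif beginning 183 bases before the start. A match describes the letters only and is not evidence of binding.
CNN2: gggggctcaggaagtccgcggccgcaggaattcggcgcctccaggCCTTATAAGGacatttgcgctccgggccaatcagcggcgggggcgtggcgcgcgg
ACTN1: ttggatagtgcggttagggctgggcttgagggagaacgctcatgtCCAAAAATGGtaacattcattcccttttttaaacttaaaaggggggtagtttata
ACTA2: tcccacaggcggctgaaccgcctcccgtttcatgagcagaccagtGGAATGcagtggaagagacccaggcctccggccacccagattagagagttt

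Among the filament regulators, TPM1 and CALD1 showed the largest differences of the 10 genes. TPM1 (ENSG00000140416.19, chr15:63042632-63071915, GRCh38, plus strand) encodes a tropomyosin, a coiled-coil protein along the actin filament. Its level was 170.5 and 164 FPKM in the DMSO libraries and 327 and 352 FPKM in the IWP2 libraries. The groups were far apart, and TPM1 rose 2.02-fold on the log2(FPKM + 1) scale, a log2 difference of 1.01 ± 0.08 (SE, n = 2 per group) with a limma adjusted p of 0.00262. TPM1 passed the test in 10 of 11 alternative settings.

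CALD1 (ENSG00000122786.19, chr7:134744252-134970728, plus strand) encodes caldesmon, which binds actin and restrains myosin. Its level was 114 and 100.1 FPKM with DMSO and 249.8 and 214 FPKM with IWP2. The spread between the IWP2 libraries was wider than in TPM1, yet small beside the distance between the groups. CALD1 rose 2.16-fold, with a log2 difference of 1.11 ± 0.11 (SE) and a limma adjusted p of 0.00475. It passed the test in 8 of 11 alternative settings.

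TPM2 (ENSG00000198467.13, chr9:35681992-35691020, minus strand), another tropomyosin gene, stood in contrast. It had 211 and 225 FPKM with DMSO and 228 and 229.8 FPKM with IWP2. The higher DMSO library was almost level with the lower IWP2 library. The log2 difference of TPM2 was 0.07, with a 95% interval from -0.13 to 0.27 and a limma adjusted p of 0.615. This interval lies below the interval of TPM1, which ran from 0.81 to 1.22. The difference between these genes was not tested as such.

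TAGLN and the calponins bind along actin. TAGLN (ENSG00000149591.16, chr11:117199321-117204782, plus strand) encodes transgelin, also known as SM22, an early marker of the smooth muscle lineage. It had the highest level of the 10 genes, 516 and 428 FPKM with DMSO and 818 and 874 FPKM with IWP2. In DMSO its mean of 472 ± 62.0 FPKM (SD, n = 2) stood above 98.8% of all genes tested. TAGLN rose 1.80-fold, with a log2 difference of 0.85 ± 0.12 (SE) and a limma adjusted p of 0.0106, and passed in 7 of 11 alternative settings. Its last 446 bases overlap PCSK7 on the opposite strand, which had a mean of 21.6 FPKM.

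CNN1 (ENSG00000130176.7, chr19:11538717-11550323, plus strand) encodes basic calponin, which in adults is largely confined to smooth muscle. Its level was 40.9 and 38.2 FPKM with DMSO and 65.9 and 75.6 FPKM with IWP2. CNN1 rose 1.77-fold, with a log2 difference of 0.82 ± 0.10 (SE) and a limma adjusted p of 0.00805, and passed in 7 of 11 alternative settings. CNN2 (ENSG00000064666.14, chr19:1026581-1039068, plus strand), the widely expressed calponin of nonmuscle cells, had 164 and 158 FPKM with DMSO and 209.8 and 229 FPKM with IWP2. The replicates of CNN2 were close in both groups, and the rise was smaller, 1.36-fold, with a log2 difference of 0.44 ± 0.08 (SE) and a limma adjusted p of 0.0268. CNN2 was called in 5 of 11 alternative settings, fewer than any other gene that rose. A stretch of 338 bases at the 3′ end of CNN2 is covered on the opposite strand by AC011558.1, with a mean of 122.8 FPKM over the 4 libraries, so reads there cannot be told apart without strand.

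ACTN1 (ENSG00000072110.13, chr14:68874143-68979440, minus strand) encodes alpha-actinin 1, which crosslinks actin in stress fibres and at focal adhesions. Its level was 94.2 and 85.5 FPKM with DMSO and 136.9 and 140.6 FPKM with IWP2. The IWP2 libraries nearly coincided, and ACTN1 rose 1.54-fold, with a log2 difference of 0.62 ± 0.09 (SE) and a limma adjusted p of 0.0107. ACTN1 passed the test in 8 of 11 alternative settings.

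The motor subunits did not pass the test. MYL9 (ENSG00000101335.9, chr20:36541484-36551447, plus strand) encodes a regulatory light chain of myosin II found in smooth muscle and nonmuscle cells. It had 172 and 141 FPKM with DMSO and 200.04 and 222 FPKM with IWP2. The DMSO libraries were about as far from each other as the higher of them was from the lower IWP2 library, and the log2 difference of 0.43 (95% interval 0.12 to 0.74) did not pass the test (limma adjusted p = 0.0792).

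MYH9 (ENSG00000100345.20, chr22:36281281-36388018, minus strand) encodes the heavy chain of nonmuscle myosin IIA. It had 124 and 114 FPKM with DMSO and 160.2 and 133 FPKM with IWP2. The lower IWP2 library was nearer to the DMSO libraries than to its own replicate. The log2 difference of MYH9 was 0.29, with a 95% interval from -0.0043 to 0.59 and a limma adjusted p of 0.17, and it was 0.16 without IWP2 replicate 1.

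ACTA2 (ENSG00000107796.13, chr10:88935074-88991339, minus strand) encodes smooth muscle alpha-actin, the best known marker of myofibroblasts and smooth muscle. It was barely expressed, at 2.24 and 1.35 FPKM with DMSO and 2.82 and 3.79 FPKM with IWP2. The log2 difference of 0.63 was close to that of ACTN1, but its 95% interval was much wider, from 0.05 to 1.21, and the limma adjusted p was 0.139. This closeness depended on the 1 added to each FPKM. With 0.1 added instead, the difference was 0.87 for ACTA2 and 0.63 for ACTN1. With 1 added, the difference of ACTA2 was 0.40 without DMSO replicate 2. Its mean in DMSO stood above 11.9% of all genes tested. The ACTA2 gene body overlaps STAMBPL1 and FAS on the opposite strand, with means of 0.716 and 0.741 FPKM over the 4 libraries, and strand use in the counting is not given in the sources used here, so reads from these genes cannot be told apart where they overlap.

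**Figure D2:**
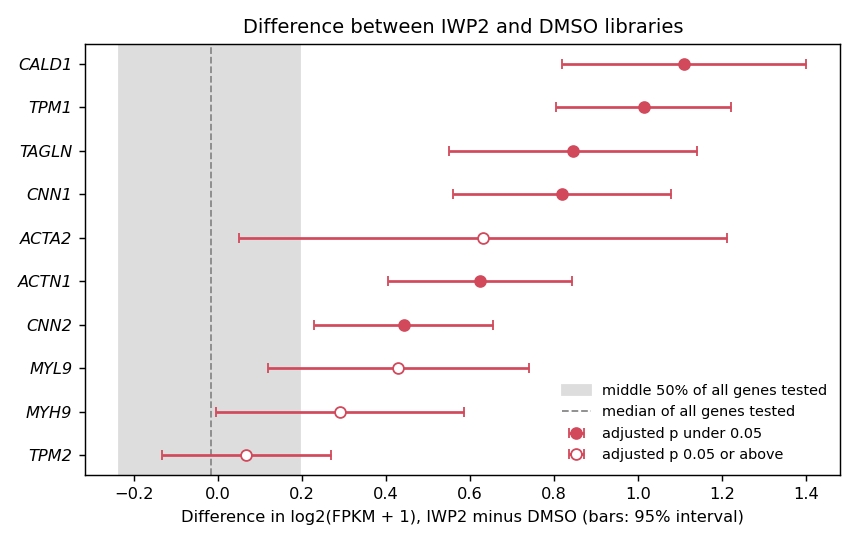
The points give the difference in log2(FPKM + 1), IWP2 minus DMSO, of each contractile gene with its 95% interval from limma, filled where the adjusted p was under 0.05. CALD1 and TPM1 lie farthest to the right, at 1.11 and 1.01, and TPM2 lies within the grey band that holds the middle 50% of all genes tested.

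FPKM is scaled by transcript length, so the levels of related genes could be set side by side and each gene expressed as a share of its family's summed FPKM. These shares do not change when a library is rescaled. With 2 libraries against 2, the smallest p of a two-sided exact permutation test is 0.333, so the shares are given without a test. Among the 4 tropomyosin genes TPM1 made up 15.2% and 14.4% of the family with DMSO and 25.7% and 26.6% with IWP2. It was the least abundant of the 4 with DMSO and stood above TPM2 and TPM4 in both IWP2 libraries. TPM2 took 18.9% and 19.8% with DMSO and 17.9% and 17.4% with IWP2. The share of TPM3, the most abundant tropomyosin of these cells, was 38.2% ± 0.4 (SD, n = 2) with DMSO and 31.3% ± 0.1 with IWP2. The summed level of the family was 1.15 times as high with IWP2.

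Of the calponins, CNN1 made up 11.8% and 11.3% with DMSO and 16.1% and 16.8% with IWP2, and CNN2 made up 47.2% and 46.6% with DMSO and 51.1% and 50.9% with IWP2. The third calponin, CNN3, went from 41.6% ± 0.8 (SD, n = 2) with DMSO to 32.6% ± 0.4 with IWP2, while its level in FPKM showed a log2 difference of -0.03. Of the regulatory light chains, MYL9 took 32.6% and 30.0% with DMSO and 38.1% and 39.5% with IWP2, and MYL12A took 37.1% and 40.2% with DMSO and 30.5% and 29.4% with IWP2. MYL9 was thus below MYL12A in both DMSO libraries and above it in both IWP2 libraries. MYL12A and MYL12B are near-identical copies, and the way shared reads were divided between them is uncertain.

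TAGLN made up 66.2% and 65.7% of the transgelins with DMSO and 72.8% and 72.3% with IWP2. MYH9 took 66.9% and 64.0% of the nonmuscle myosin heavy chains with DMSO and 68.2% and 68.9% with IWP2, the rest being mostly MYH10. ACTN1 took 21.4% and 23.5% of the nonmuscle alpha-actinins with DMSO and 25.1% and 27.9% with IWP2, beside the more abundant ACTN4. Single libraries weighed on these differences in share, which were 3.05 points for MYH9 and 1.60 without DMSO replicate 2, and 4.07 points for ACTN1 and 2.63 without IWP2 replicate 2. ACTA2 was a trace of all actin transcripts, 0.036% ± 0.013 (SD, n = 2) with DMSO and 0.056% ± 0.009 with IWP2, a difference of 0.019 points that was 0.010 without DMSO replicate 2 and 0.029 without DMSO replicate 1. The cytoplasmic actins ACTB and ACTG1 made up 43.9% and 53.9% of the actins with DMSO and 44.5% and 51.7% with IWP2.

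**Figure D3:**
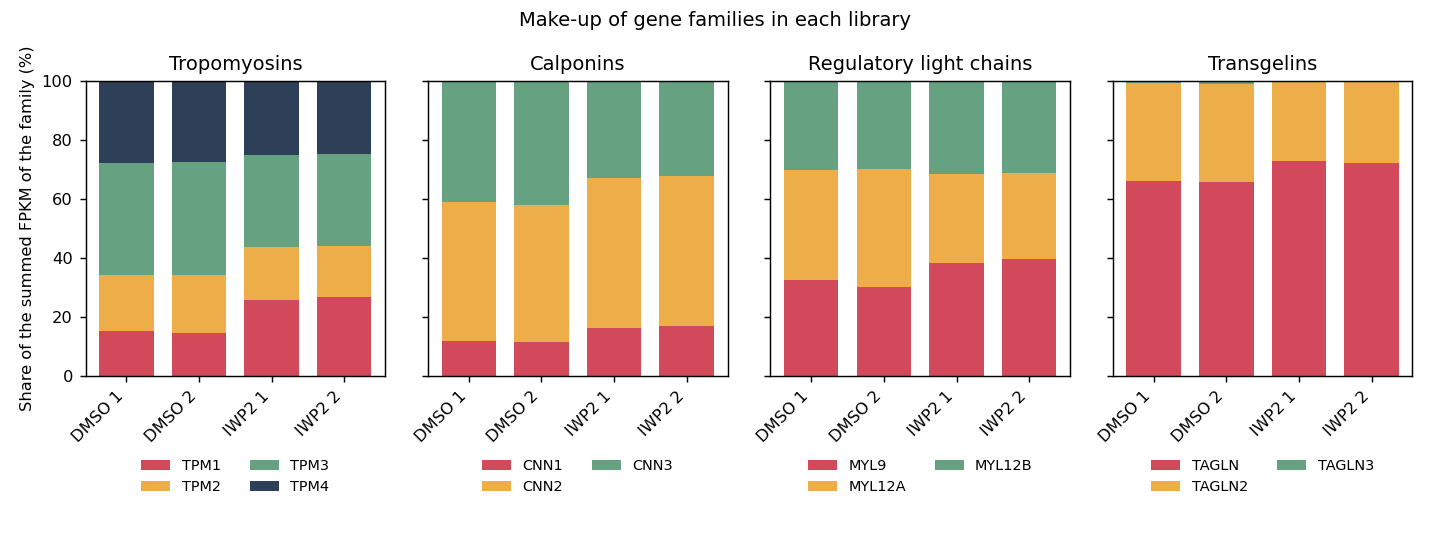
Stacked bars give, for each of the 4 libraries, the share (%) of each gene in the summed FPKM of its family. TPM1 widens from 15.2% and 14.4% in the DMSO libraries to 25.7% and 26.6% in the IWP2 libraries, and CNN1, MYL9 and TAGLN also take larger shares with IWP2.

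Paralogs of the contractile genes were measured beside them. Of 19 paralogs 18 passed the filter on low values, ACTN2 being too low. Of these, 2 rose (11.1%) and 1 fell (5.56%), beside 6.75% and 8.44% of all genes tested. Their median log2 difference was 0.17. The 2 that rose were the sarcomeric actins, which are expressed in early muscle and heart. ACTC1, cardiac alpha-actin, had 101.0 and 84.0 FPKM with DMSO and 182.3 and 188 FPKM with IWP2 (log2 difference 1.00 ± 0.11, SE, limma adjusted p = 0.00581). ACTA1, skeletal alpha-actin, had 12.3 and 9.64 FPKM with DMSO and 24.8 and 29.3 FPKM with IWP2 (log2 difference 1.23, limma adjusted p = 0.00793). The muscle actin genes are highly alike in coding sequence, so the division of reads among ACTA1, ACTA2, ACTC1 and ACTG2 is uncertain. TAGLN3, a transgelin best known from neurons, fell by 0.75 on the log2 scale from 5.94 and 7.17 FPKM to 3.38 and 3.54 FPKM. The 3 most abundant paralogs, ACTG1, ACTB and MYL6, had log2 differences of 0.18, 0.26 and 0.16 and did not pass the test.

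Of 20 genes for proteins that crosslink actin or join it to adhesions, 4 rose (20%) and 2 fell (10%), beside 6.75% and 8.44% of all genes tested. Their median log2 difference was 0.22. VCL, which encodes vinculin, the protein that links actin to integrin and cadherin adhesions, had 56.3 and 50.4 FPKM with DMSO and 126.3 and 121.8 FPKM with IWP2. VCL rose 2.30-fold, with a log2 difference of 1.20 ± 0.09 (SE) and a limma adjusted p of 0.00215. CSRP1, a LIM protein of smooth muscle and stress fibres, rose from 28.7 and 17.2 FPKM to 53.0 and 58.9 FPKM, a log2 difference of 1.29. ZYX, zyxin of focal adhesions, and LASP1, a LIM and SH3 protein at actin bundles, rose with log2 differences of 0.58 and 0.50. FHL1 and PDLIM5, LIM proteins of striated muscle and Z-discs, fell by 0.86 and 0.78 on the log2 scale. The most abundant members of this list, FLNA, PDLIM7 and PXN, had log2 differences of 0.14, 0.29 and 0.36 and did not pass the test.

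Among 7 SRF-related factors, 1 rose and 1 fell (14.3% each), beside 6.75% and 8.44% of all genes tested. MKL1, which encodes the SRF cofactor MRTF-A, had 19.3 and 17.4 FPKM with DMSO and 29.1 and 27.5 FPKM with IWP2, a log2 difference of 0.60 ± 0.10 (SE) with a limma adjusted p of 0.0187. MKL2, which encodes the related cofactor MRTF-B, had 12.1 and 7.28 FPKM with DMSO and 6.75 and 5.75 FPKM with IWP2, a log2 difference of -0.53 that did not pass the test (limma adjusted p = 0.216). ELK3, a ternary complex factor that binds beside SRF, fell by 0.64 on the log2 scale. SRF had a log2 difference of 0.19 and ELK1 one of -0.04, and neither passed the test. MYOCD, the smooth and cardiac muscle cofactor myocardin, lay at 6.38 and 5.59 FPKM with DMSO and 5.75 and 3.38 FPKM with IWP2, with overlapping groups. Over all other actomyosin genes examined 15 of 65 were called, 8 higher and 7 lower, beside 15.2% of all genes tested. Fewer were called, among these genes and over all genes tested, when any 1 library was left out, which leaves 1 library in a group.

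**Figure D4:**
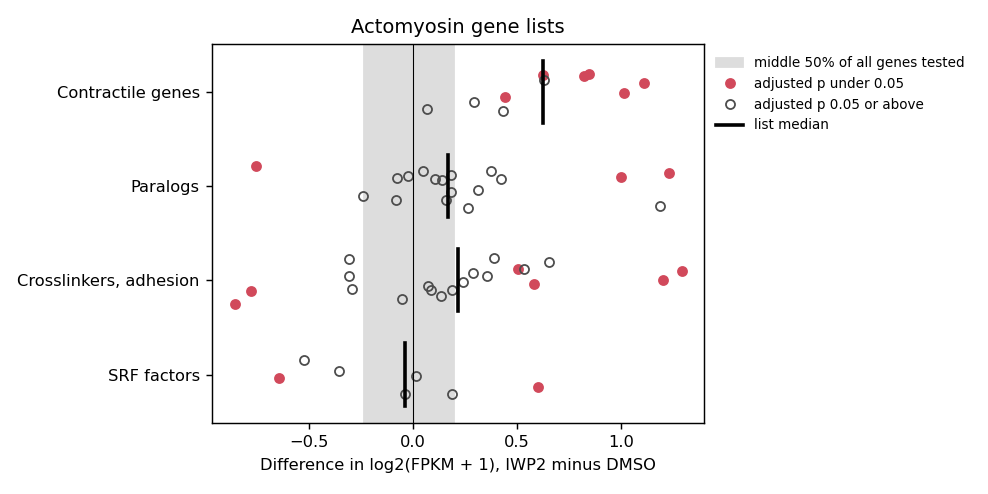
Each point is the difference in log2(FPKM + 1), IWP2 minus DMSO, of 1 tested gene, by list, filled where the adjusted p was under 0.05, with a black bar at the list median. The contractile genes have a median of 0.63 and no point below 0, while the other lists hold points on both sides and medians from -0.04 to 0.22.

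Most markers of mature smooth muscle were near 0. Of 8 such markers, 5 stayed under 1 FPKM in all 4 libraries, and the smooth muscle myosin heavy chain MYH11 reached at most 0.120 FPKM. The summed level of the 8 markers ran from 19.4 to 21.7 FPKM with DMSO and from 14.0 to 19.0 FPKM with IWP2, most of it from SMTN and MYOCD. MYH11, LMOD1, SYNPO2 and KCNMB1, each under 1 FPKM, were higher in both IWP2 libraries, and DES was lower in both. These were too low to enter the test. In SMTN, MYOCD and PLN the groups overlapped. Of the 2 markers that entered the test, SMTN and MYOCD, limma called 0, and 0 had an unadjusted p under 0.05. The summed level of 7 fibroblast markers was 130.3 to 144.0 FPKM with DMSO and 101.0 to 107.0 FPKM with IWP2. DCN was at or near 0 in all libraries. Of 5 tested, 1 was called, LUM, which was lower. PDGFRB was higher in both IWP2 libraries without passing the test (limma adjusted p = 0.203), and 3 of the 5, LUM among them, were lower in both. Of 5 cardiac markers, 3 were tested and 2, MYL7 and NKX2-5, fell. The third, TNNT2, had 1.07 and 0.949 FPKM with DMSO and 1.62 and 2.07 FPKM with IWP2. Its log2 difference of 0.50 did not pass the test (limma adjusted p = 0.151). The 5 cardiac markers summed to 76.0 to 112.2 FPKM with DMSO and 25.8 to 30.9 FPKM with IWP2, most of it MYL7. Endothelial markers summed to 53.3 to 61.3 FPKM with DMSO and 36.1 to 38.8 FPKM with IWP2, nearly all of it KDR, which fell. Endoderm markers summed to 107.7 to 161 FPKM with DMSO and 79.9 to 95.2 FPKM with IWP2. Nearly all of it was SOX17, which did not pass the test (limma adjusted p = 0.152), and 1 of these 2, FOXA2, fell.

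Pluripotency markers moved in the same direction as the contractile genes. Of 5 pluripotency markers, 4 rose, among them POU5F1 and SOX2. NANOG, at 23.0 and 9.54 FPKM with DMSO and 33.6 and 27.5 FPKM with IWP2, did not pass the test (limma adjusted p = 0.165). The 5 pluripotency markers summed to 720.2 to 908 FPKM with DMSO and 2144 to 2148 FPKM with IWP2, most of it POU5F1. All 5 mesoderm markers fell, from 864 to 1075 FPKM in sum with DMSO to 47.2 to 50.9 FPKM with IWP2. All 4 Wnt targets checked, AXIN2, SP5, LEF1 and NKD1, fell as well, from 114.9 to 124.2 FPKM in sum to 7.74 to 8.67 FPKM. The part of these shifts in cell state in the levels of the contractile genes was not tested.

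**Figure D5:**
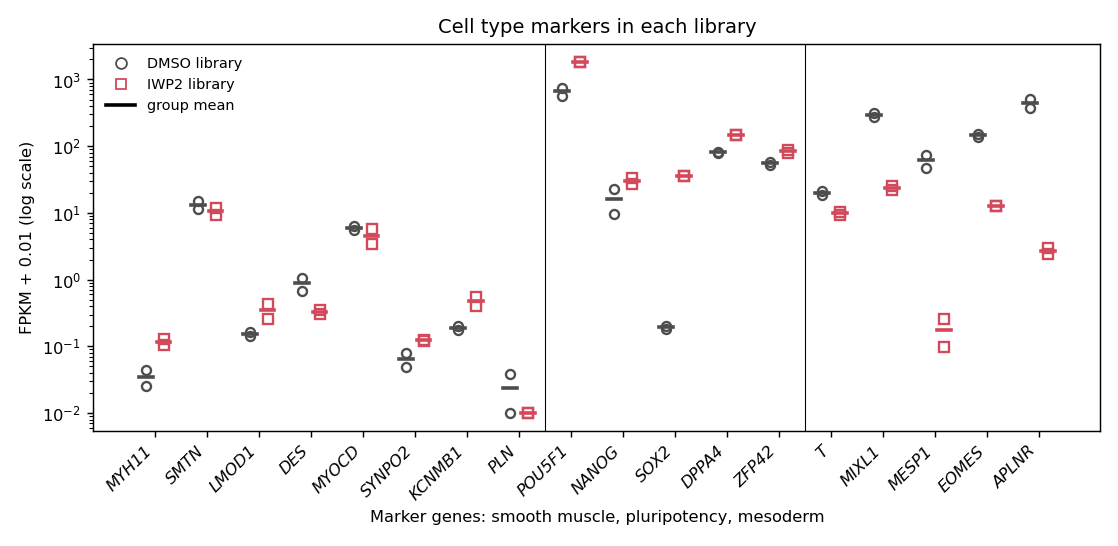
Points give FPKM + 0.01 (log axis) of smooth muscle, pluripotency and mesoderm markers in each library, with circles for DMSO, squares for IWP2 and short bars for group means. Most smooth muscle markers lie below 1 FPKM in all libraries, the pluripotency markers are higher with IWP2, and the mesoderm markers are lower.

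The libraries of a group resembled each other more than those of the other group. Across the genes tested, Pearson's r of log2(FPKM + 1) was 0.972 between the DMSO libraries, 0.980 between the IWP2 libraries and 0.927 to 0.938 between groups, as a description across genes that are not independent. The summed FPKM ran from 616418 to 653850 per library. Read counts were not used here and the depth of each library is unknown, so no counting interval is given.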

How the data were processed

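RNA was taken from H1 cells at day 2 with or without IWP2, 2 libraries each, and prepared with the Illumina TruSeq RNA kit. The authors deposited 1 table of FPKM values, with 1 column per library. The unit was read from the values, which are not whole and sum to a different total in each library. The submitters' processing notes name BWA, Bowtie and RSEM, without roles or versions, and the build hg19. The row names carry GRCh38 positions instead: after adding 1 to each start, 97.3% of the 58102 identifiers found in GENCODE 29 had the same start and end. Positions given are those of the table, counted from 1. The DMSO columns are named as libraries without IWP2 and were assigned to the DMSO group by that name, with the number in the column name.

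Genes with a mean of at least 1 FPKM over all 4 libraries were tested, which kept all 10 contractile genes. log2(FPKM + 1) was fitted across all genes with limma 3.58.1 in R 4.3.3 (mean-variance trend, group as the only term), with Benjamini-Hochberg adjustment over all genes and a threshold of 0.05. Fold changes are on the log2(FPKM + 1) scale, which understates the change of low genes. No counts were at hand, so no count model was used.

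Every contractile gene is named. Of the other actomyosin lists, genes past the threshold were named (at most 5 in each direction) with the 3 most abundant, and MYOCD, MKL2 and ACTG2 were added after their values were seen. A list of 20 regulators, counted among the 65 other actomyosin genes, is not reported here. The contractile genes and lists were chosen with earlier results of these data known. Alternatives were another pseudocount, other filters, quantile and TPM scaling, no trend, leaving out each library, and the replicate number as a block. Promoter stretches are RefSeq's (GRCh38.p14), and annotated exons are GENCODE 29's.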

Additional observations from a re-analysis of the deposited data

How the results depend on the processing

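All 10 contractile genes kept a positive difference under each of the 11 alternatives in which they were tested (ACTA2 falls under a minimum mean of 5 FPKM). Of these values, 88 stayed on the same side of the threshold and 21 lost the call. The number of contractile genes called was 6 as reported, 1 of 10 with no filter on low values and between 0 and 5 when single libraries were left out. The number of all genes called was 2129 as reported, 381 with no filter and between 238 (without IWP2 replicate 2) and 1375 (without DMSO replicate 1) when single libraries were left out, with 1129 without DMSO replicate 2 and 294 without IWP2 replicate 1. For the other actomyosin lists it was 15 of 65 as reported, 1 with no filter and between 0 and 10 without single libraries. With 3 libraries the lone sample of a group is assumed to vary like the other group, and with no filter more genes share the adjustment.

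With the replicate number as a block, 1927 genes and the same 6 contractile genes were called. The labels do not say that equal numbers share a culture or day, so the numbers are not read as pairs. Over 2 pairs the deviations of same-numbered libraries correlated at 0.152, which is too few pairs to decide it. The gene with the highest FPKM was MT-ATP8 in both libraries numbered 1 and RN7SL2 in both numbered 2. Quantile normalization and rescaling moved the median of all genes from -0.02 to 0.02 and -0.04. Without the mean-variance trend CNN2 lost its call (adjusted p = 0.066), and 5 contractile genes were called.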
